A study of Homo sapiens with 6 samples.

Results

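The ATF4 and CHOP axis is the set of 10 stress-response genes ATF4, DDIT3 (which encodes CHOP), ATF3, ATF5, CEBPB, CEBPG, PPP1R15A, TRIB3, DDIT4 and SESN2, out of 18404 genes measured. Each was read through a probe set, a group of probes for one transcript, annotated to that gene alone. Where a gene had several such probe sets, the brightest by its mean over the 6 arrays was taken. The genes were selected on knowledge of the contrast described here, the log2 values of knockdown against scrambled arrays, so their own values are given as a description, with no p-values, and counts of them past the threshold of the fit over all genes stand beside the share of all genes with nothing read from them. RNA came from the MEC-1 cell line, established from the B cells of a chronic lymphocytic leukemia and grown in RPMI medium with fetal calf serum and without phenol red or antibiotics. Cells received a short hairpin RNA (shRNA) by lentivirus: 3 arrays came from cells with the hairpin against UGT2B17, a UDP-glucuronosyltransferase that inactivates androgens by glucuronidation, and 3 had a scrambled hairpin. Both groups thus carry a lentiviral hairpin, no untreated cells are part of the comparison, and the labels do not state how many targeting hairpins or clones were used.

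When the initiation factor eIF2 is phosphorylated by a stress-sensing kinase, general translation slows while the ATF4 messenger is translated more, which is known as the integrated stress response. ATF4 is a basic leucine zipper (bZIP) factor that binds DNA as a dimer, often with a C/EBP protein, and activates genes of amino acid supply as well as DDIT3, ATF3, TRIB3 and others of the axis. Protein phosphatase 1 guided by PPP1R15A reverses the phosphorylation and closes the loop. Arrays read RNA, so the translational control of ATF4 is not seen here.

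All 6 arrays correlated with each other at a Pearson r of 0.991 to 0.996 over all probe sets. Scrambled replicate 3 lay furthest from its group mean, its genes deviating by 0.138 log2 units (root mean square), against 0.0771 to 0.112 on the other arrays. The targeted gene checked the labels: UGT2B17 read 3.19, 3.27 and 3.17 log2 units in the knockdown and 3.95, 3.69 and 3.91 with the scrambled hairpin, on a dim probe set at percentile 8.02 by level. A brighter one that also names a relative (percentile 62.8) differed by −1.34 log2 units and another that names 5 genes (percentile 78.0) by −1.50. A further dim one that names 7 genes (percentile 11.6) differed by only −0.21. B cell markers were bright, with 7 measured genes between percentiles 88.6 and 98.8 of all probe sets by level, and none of the 7 passed the test of the difference (1 of 7 had an unadjusted p under 0.05, limma). The 8 markers of T and NK cells had a median percentile of 31.0 and the 8 of monocytes and granulocytes one of 34.3, and none of either list passed, with 1 higher and 1 lower at p under 0.05 unadjusted. Of 8 fibroblast and epithelial markers, with a median percentile of 47.6, KRT18 rose (limma adjusted p = 0.0494) and 7 did not pass. Whether a shift is shared by all cells or comes from some of them cannot be told apart in bulk RNA. What a replicate was, a separate culture or a repeat of one, is not given, and p-values then cover only the spread among these arrays.

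Of the 10 axis genes, 7 had groups of arrays that did not overlap, all higher in the knockdown, and the other 3, SESN2, CEBPB and CEBPG, had groups that overlapped. The group means of all 10 genes were higher with the UGT2B17 hairpin, as were those of 49.3% of all genes, and their median log2 fold change was 0.28, against −0.002 over all genes. Over all genes, 11.8% had groups apart in that direction and 13.1% in the other. At a Benjamini-Hochberg adjusted p under 0.05 in limma, a linear model fitted over all genes, 3 of the 10 were called higher (ATF4, DDIT3 and PPP1R15A) and 7 did not pass. Over all genes 3.61% were called, 1.92% higher and 1.69% lower. Because the genes were chosen with this contrast in view, these counts describe the set and are no evidence for it.

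Which genes were called moved with the arrays used. Of the 10 genes, 0 were called without knockdown replicate 1, without knockdown replicate 2 or without scrambled replicate 2. Each time 6 of the 10 had an unadjusted p under 0.05 in limma. With every array, 3341 of all 18404 genes had one, and the share in the fits leaving out an array is not given. Since the genes were chosen on this contrast, nothing is read from the 6. Calls fell over all genes too: these fits called 181, 152 and 188 of 18404 genes, against 665 with every array. Over all genes, 175 were called without knockdown replicate 3 and 694 without scrambled replicate 1. Without knockdown replicate 3 only PPP1R15A was called, without scrambled replicate 1 DDIT3 and PPP1R15A, and without scrambled replicate 3 ATF5 as well as the 3. The median log2 fold change of the 10 lay between 0.25 and 0.32 over these fits, and the values of ATF3, SESN2, CEBPB and CEBPG moved more, as given with each gene.

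**Figure D1:**
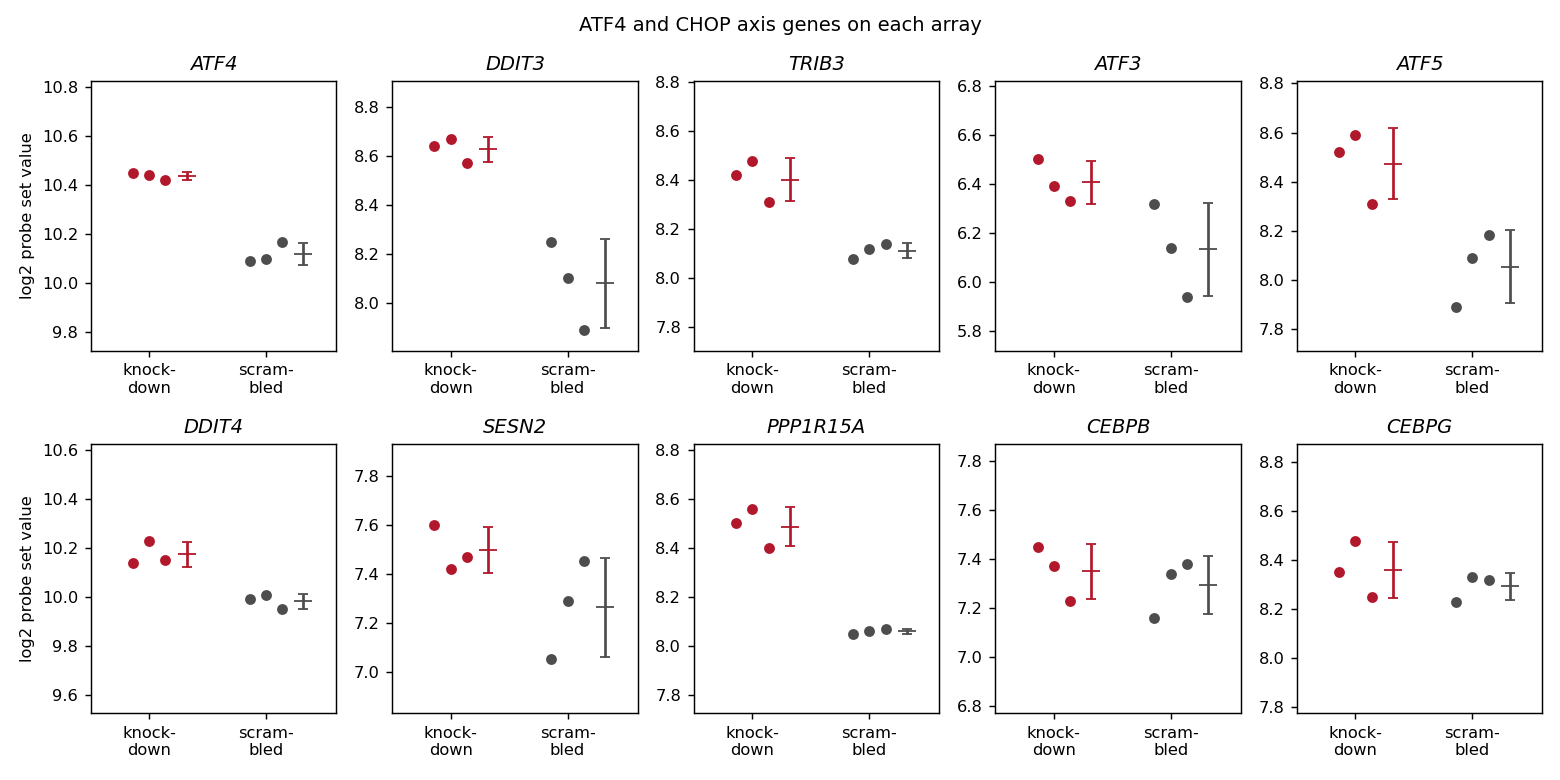
Log2 probe set value (vertical axis, each panel spanning the same range of log2 units) of the 10 axis genes on the 3 knockdown arrays (red, left) and the 3 scrambled arrays (grey, right), replicates 1 to 3 from left to right within a group; the bar beside each group is the mean with its SD. In 7 panels the groups do not overlap, and in those of SESN2, CEBPB and CEBPG they do.

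ATF4, the factor from which the axis takes its name, read 10.45, 10.44 and 10.42 log2 units in the knockdown and 10.09, 10.10 and 10.17 with the scrambled hairpin. The knockdown arrays were nearly identical and all lay above the scrambled ones. Its means were 10.43 ± 0.02 in the knockdown and 10.12 ± 0.04 with the scrambled hairpin (SD, n = 3 each), which is 1.24-fold or 0.31 ± 0.06 (SE) on the log2 scale. A second probe set annotated to ATF4 alone, only slightly dimmer, gave less: it read 10.15, 10.28 and 10.15 in the knockdown and 10.11, 9.97 and 10.03 with the scrambled hairpin. Here too the groups did not overlap, but the difference was 0.15 ± 0.07 log2 units (SE) and its 95% interval ran from −0.01 to 0.32. With both probe sets averaged the value was 0.23 and ATF4 was no longer called. Nor was it called with arrays centred on their median, with the replicate number as a block or with all deposited probe sets tested. Among the fits leaving out an array, only that without scrambled replicate 3 called ATF4.

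DDIT3 encodes CHOP, a bZIP factor induced by ATF4 and linked to cell death under lasting stress, and it showed the largest difference of the 10. It read 8.64, 8.67 and 8.57 log2 units in the knockdown and 8.25, 8.10 and 7.89 with the scrambled hairpin. The knockdown arrays lay close together, whereas the scrambled ones spread over a wider range, with replicate 3 lowest. The means were 8.63 ± 0.05 in the knockdown and 8.08 ± 0.18 with the scrambled hairpin (SD, n = 3 each), and the log2 fold change of 0.55 ± 0.09 (SE), or 1.46-fold, stood at percentile 99.4 of all genes. Leaving out any one array kept it between 0.46 and 0.64.

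ATF3 and ATF5, bZIP factors that are both activated downstream of ATF4, were also higher. ATF5 read 8.52, 8.59 and 8.31 log2 units in the knockdown and 7.89, 8.09 and 8.18 with the scrambled hairpin, a log2 fold change of 0.42 ± 0.10 (SE). Its groups did not overlap, but knockdown replicate 3 and scrambled replicate 3 came close. ATF3, the dimmest of the 10 at percentile 47.9 by level, read 6.50, 6.39 and 6.33 in the knockdown and 6.32, 6.14 and 5.94 with the scrambled hairpin, a log2 fold change of 0.28 ± 0.10 (SE). Its lowest knockdown array and its highest scrambled array were almost level, and the value was 0.18 without scrambled replicate 3 and 0.37 without scrambled replicate 1. Neither gene was among the 3 called.

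CEBPB and CEBPG, C/EBP factors that pair with ATF4 on DNA, differed least. CEBPG read 8.35, 8.48 and 8.25 log2 units in the knockdown and 8.23, 8.33 and 8.32 with the scrambled hairpin, a log2 fold change of 0.06 ± 0.08 (SE) whose 95% interval ran from −0.11 to 0.24. CEBPB read 7.45, 7.37 and 7.23 in the knockdown and 7.16, 7.34 and 7.38 with the scrambled hairpin, also 0.06 ± 0.09 (SE), the interval running from −0.14 to 0.25. In both genes the groups overlapped. Leaving out 1 array moved CEBPG between 0.0032, without knockdown replicate 2, and 0.12, without knockdown replicate 3, and CEBPB between −0.01, without scrambled replicate 1, and 0.12, without knockdown replicate 3. Of their relatives outside the axis, CEBPA, CEBPD and CEBPE also lay close to 0, at 0.03, −0.06 and 0.05 log2 units, and none of them passed. Without knockdown replicate 1, CEBPA turned to −0.01 and CEBPE to −0.02.

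Promoter sequence was set beside these values because ATF4 dimers with C/EBP factors are known to bind a composite element and other ATF and CREB dimers the cAMP response element. Windows of 250 bases before to 50 after a start site were taken from RefSeq (GRCh38.p14), which held 19 windows for the 10 genes, some of them overlapping. Both strands were searched for the composite element TGATGNAA, the palindromic cAMP response element TGACGTCA and the ER stress response element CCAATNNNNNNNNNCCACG. The composite element was found for 2 of the 10 genes, ATF3 and CEBPG, each in 1 of 2 windows. That is 2 of the 19 windows, beside 3.62% of all 35116 windows. The cAMP response element was found for PPP1R15A alone, in 1 of the 19 windows, and in 1.85% of all windows. The ER stress response element was found for none of the 10 and in 0.0769% of all windows. The matches are printed with those of ASNS and CHAC1, targets of ATF4 described further on, 5′ to 3′ on the gene's strand with the match in capitals, because they show the same letters at genes with different values: CEBPG, at a log2 fold change of 0.06, holds the element, and so does CHAC1, at 0.64, on the other strand.
CEBPG (chr19:33374047-33374102, plus strand, 42 bases before the start): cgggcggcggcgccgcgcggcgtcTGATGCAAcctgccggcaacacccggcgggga
ATF3 (chr1:212565192-212565247, plus strand, 191 bases before the start): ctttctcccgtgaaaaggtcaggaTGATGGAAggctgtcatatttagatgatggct
ASNS (chr7:97872445-97872500, minus strand, 68 bases before the start): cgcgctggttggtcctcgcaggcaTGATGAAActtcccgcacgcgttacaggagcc
CHAC1 (chr15:40953238-40953293, plus strand, 209 bases before the start): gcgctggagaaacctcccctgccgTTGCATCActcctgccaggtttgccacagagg
PPP1R15A (chr19:48872339-48872394, plus strand, 58 bases before the start): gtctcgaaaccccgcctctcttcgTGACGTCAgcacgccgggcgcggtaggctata
A match says only that the letters are present, and the absence of one in these windows says nothing about binding elsewhere. ASNS and CHAC1 are shown because they hold the element. Of the further targets described below, CTH, SLC7A11, ALDH1L2, PSAT1 and SLC3A2 were listed from the same search. None of these had a match in the 250 bases before a start site. For CARS1 and the remaining risen targets the outcome is not given.

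PPP1R15A, also called GADD34, which brings protein phosphatase 1 to phosphorylated eIF2alpha, separated the groups cleanly. It read 8.50, 8.56 and 8.40 log2 units in the knockdown and 8.05, 8.06 and 8.07 with the scrambled hairpin. The scrambled arrays were nearly identical and all knockdown arrays stood well above them. The difference was 0.42 ± 0.07 log2 units (SE), or 1.34-fold, and stayed between 0.39 and 0.47 in all fits tried. Its constitutive relative PPP1R15B read 10.17 ± 0.04 in the knockdown and 10.03 ± 0.09 with the scrambled hairpin (SD, n = 3 each), which did not pass (log2 fold change 0.14; limma adjusted p = 0.334). The difference between these relatives was not tested.

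TRIB3, a pseudokinase induced by ATF4 and CHOP that binds AKT and ATF4, read 8.42, 8.48 and 8.31 log2 units in the knockdown and 8.08, 8.12 and 8.14 with the scrambled hairpin. All knockdown arrays lay above the scrambled ones, and the log2 fold change was 0.29 ± 0.07 (SE), or 1.22-fold. Its relative TRIB1, a pseudokinase that hands C/EBPalpha to a ubiquitin ligase, went the other way: it read 8.53, 8.67 and 8.55 in the knockdown and 9.15, 9.04 and 9.20 with the scrambled hairpin. TRIB1 fell by 0.55 on the log2 scale (SE 0.07; limma adjusted p = 0.00722) and was called in each fit that left out 1 array. TRIB2 read 8.77 ± 0.04 in the knockdown and 8.72 ± 0.21 with the scrambled hairpin (SD, n = 3 each) and did not pass (log2 fold change 0.05, and −0.07 without scrambled replicate 3). That TRIB3 and TRIB1 respond differently was not tested by itself.

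DDIT4 and SESN2 encode stress-induced inhibitors of the growth kinase complex mTORC1. DDIT4, or REDD1, read 10.14, 10.23 and 10.15 log2 units in the knockdown and 9.99, 10.01 and 9.95 with the scrambled hairpin. The groups were apart but close, at 0.19 ± 0.06 log2 units (SE), or 1.14-fold. SESN2, a leucine-binding protein, read 7.60, 7.42 and 7.47 in the knockdown and 7.05, 7.29 and 7.45 with the scrambled hairpin, a log2 fold change of 0.23 ± 0.10 (SE). Here scrambled replicate 3 lay above knockdown replicate 2, and the value was 0.32 without scrambled replicate 3 and 0.13 without scrambled replicate 1. Among their relatives, SESN3 had a log2 fold change of 0.31 ± 0.09 (limma adjusted p = 0.108), SESN1 one of 0.06 and DDIT4L one of 0.03, and none of these passed; DDIT4L turned to −0.02 without knockdown replicate 1 or scrambled replicate 1. SESN1, SESN3 and DDIT4L were dim, between percentiles 31.3 and 39.7 by level.

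**Figure D2:**
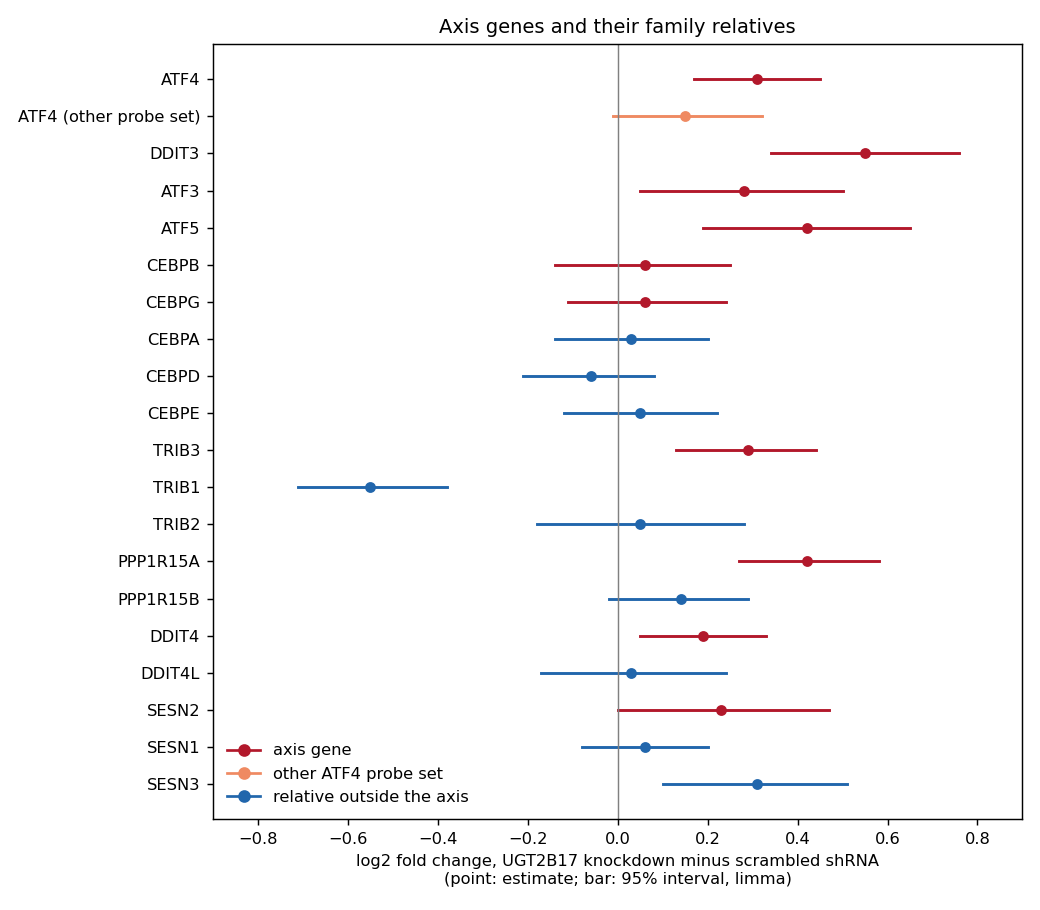
Log2 fold change, knockdown minus scrambled (horizontal axis), with its 95% interval from limma, for the 10 axis genes (red), the other ATF4 probe set (orange) and family relatives outside the axis (blue), 3 arrays per group. TRIB1, at −0.55, lies left of 0, while TRIB3, at 0.29, lies right of it. CEBPA, CEBPB, CEBPD, CEBPE and CEBPG gather around 0.

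Knockdown replicate 3 gave the lowest knockdown value for 8 of the 10 genes, and scrambled replicate 1 the lowest scrambled value for 7. Averaged over the 10, each gene taken relative to its mean over the 6 arrays, the knockdown arrays stood at 0.18, 0.18 and 0.06 log2 units and the scrambled arrays at −0.17, −0.12 and −0.13. The groups did not overlap in this average, which the choice of genes had a part in. The scrambled arrays did not order the genes alike: replicate 3 was lowest for DDIT3, ATF3 and DDIT4 and highest for 6 others.

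The eIF2 machinery upstream of ATF4 held no gene that passed, a count near the 3.61% called over all genes. Of 24 measured genes for the eIF2alpha kinases, eIF2, its exchange factor eIF2B, and their regulators, 0 rose and 0 fell in limma, and 3 higher and 2 lower ones had an unadjusted p under 0.05, as had 3341 of all 18404 genes. Their median log2 fold change was −0.03. The smallest p belonged to DNAJC3, a chaperone that inhibits the kinases PERK and PKR, with 9.30, 9.38 and 9.41 log2 units in the knockdown and 9.20, 9.06 and 8.95 with the scrambled hairpin (log2 fold change 0.29 ± 0.08 SE; adjusted p = 0.0888). Second was EIF2AK3, the ER stress kinase PERK itself, at 0.21 ± 0.07 (adjusted p = 0.153). In both genes the knockdown arrays lay above the scrambled ones. DNAJC3 was called without scrambled replicate 1, the only 1 of the 24 in any fit leaving out an array.

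Downstream, several genes of amino acid supply reached larger fold changes than any gene of the axis. Of 32 measured amino acid and tRNA targets of ATF4, 8 rose, 0 fell and 24 did not pass in limma, against 1.92% of all genes called higher. Unadjusted, 14 higher and 1 lower had a p under 0.05, against 3341 of 18404 over all genes in either direction. The median log2 fold change was 0.19. This list was drawn up with earlier results of these data known. ASNS, which makes asparagine, rose by 0.62 ± 0.08 log2 units (SE; limma adjusted p = 0.00722), reading 9.24, 9.38 and 9.29 in the knockdown and 8.54, 8.73 and 8.79 with the scrambled hairpin. CHAC1, which breaks down glutathione, rose by 0.64 ± 0.09 (adjusted p = 0.00977), reading 8.11, 8.08 and 7.78 in the knockdown and 7.32, 7.37 and 7.37 with the scrambled hairpin. In both genes the groups did not overlap, but the call of CHAC1 was lost without knockdown replicate 1 (adjusted p = 0.0512), without knockdown replicate 2 (0.0588) and with all deposited probe sets tested (0.055).

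The other 6 were ALDH1L2, a mitochondrial folate enzyme, at 1.18, SLC7A11, the cystine and glutamate exchanger, at 0.98, CTH, which makes cysteine, at 0.85, PSAT1, an enzyme of serine synthesis, at 0.65, CARS1, the cysteinyl-tRNA synthetase, at 0.48, and SLC3A2, the heavy chain of amino acid exchangers, at 0.31 log2 units. The count of 8 became 4 without knockdown replicate 1 or 2, 5 without knockdown replicate 3 or scrambled replicate 2, 6 without scrambled replicate 1, and 12 without scrambled replicate 3. Averaged over these genes relative to their means over the 6 arrays, the knockdown arrays stood at 0.14, 0.17 and 0.07 log2 units and the scrambled arrays at −0.26, −0.13 and 0.01, so that scrambled replicate 3 was the highest of its group.

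Among 26 other reported targets of ATF4 or CHOP, 3 rose, 0 fell and 23 did not pass, against 1.92% of all genes called higher, with a median log2 fold change of 0.10. Unadjusted, 9 higher and 2 lower had a p under 0.05, against 3341 of 18404 over all genes in either direction. The 3 were GABARAPL1 and WIPI1, both proteins of autophagosome formation, at 1.08 ± 0.11 and 0.67 ± 0.07 log2 units (SE), and INHBE, an inhibin subunit, at 0.62 ± 0.08. INHBE read 7.30, 7.07 and 7.17 in the knockdown and 6.58, 6.60 and 6.50 with the scrambled hairpin, and limma gave adjusted p = 0.00599. These 3 calls came back in every fit that left out 1 array, of which none called fewer than 3 or more than 4.

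**Figure D3:**
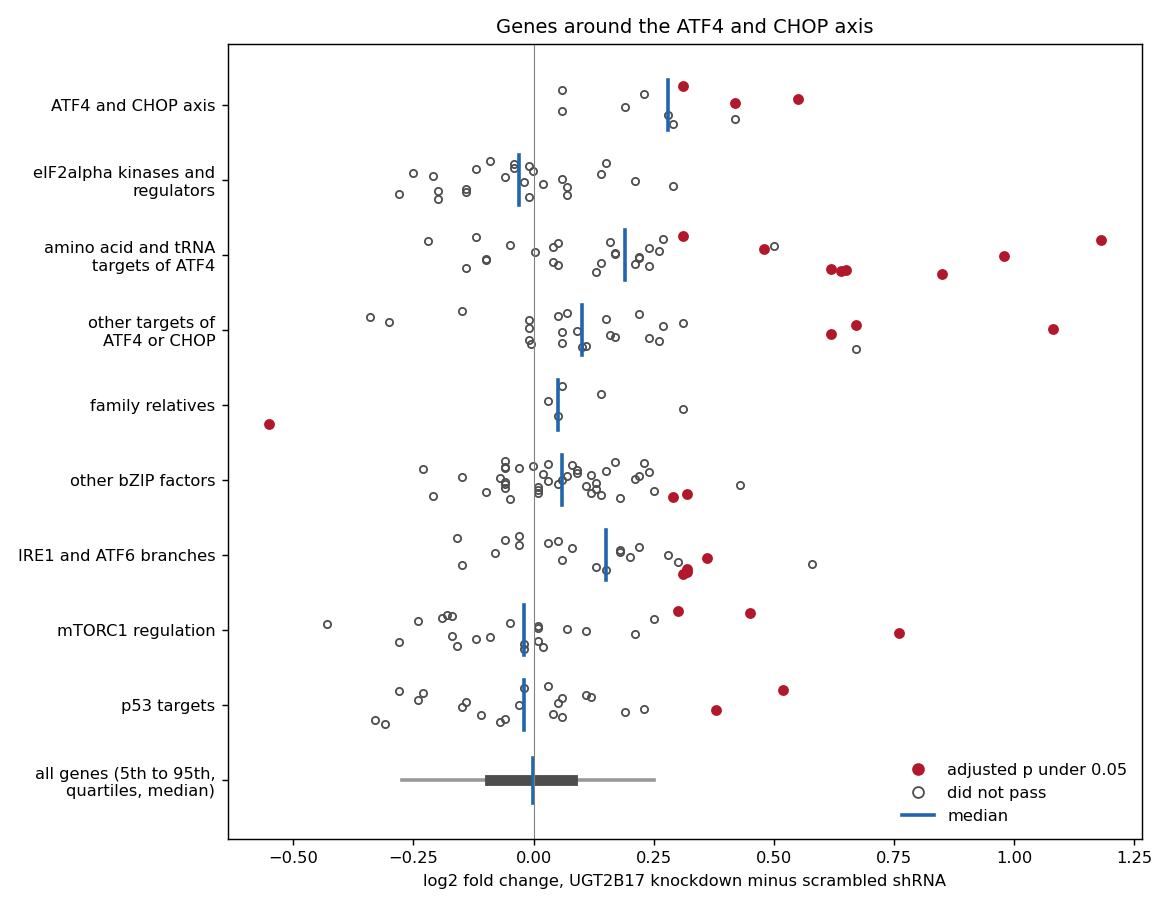
Log2 fold change, knockdown minus scrambled (horizontal axis), of each measured gene in the axis and in 8 surrounding lists; filled red points passed limma's adjusted p under 0.05 over all genes, open points did not, and blue bars are medians. The axis median is 0.28 and that of the amino acid and tRNA targets 0.19, while the eIF2 list lies at −0.03; the bottom row gives the spread of all 18404 genes.

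Among 43 measured genes listed as other bZIP factors, 2 rose, 0 fell and 41 did not pass, against 1.92% of all genes called higher. Unadjusted, 10 higher and 2 lower had a p under 0.05, against 3341 of 18404 over all genes in either direction. The median log2 fold change was 0.06. The list counts CEBPZ (log2 fold change −0.05), which has a C/EBP symbol but is not a bZIP factor. CREB3L2, a membrane-bound factor of the secretory pathway, rose by 0.32 ± 0.07 log2 units (SE; limma adjusted p = 0.0352), and NFE2L1, which drives proteasome genes, by 0.29 ± 0.06 (adjusted p = 0.037). NFE2L1 read 9.77, 9.78 and 9.78 in the knockdown and 9.47, 9.44 and 9.54 with the scrambled hairpin. Both calls were lost without any one of the knockdown replicates or scrambled replicate 2, and 1 remained without scrambled replicate 1.

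The remaining branches of the unfolded protein response, IRE1 with XBP1 and ATF6, also held genes that rose. Of 23 measured genes, 4 rose, 0 fell and 19 did not pass, against 1.92% of all genes called higher. At p under 0.05 unadjusted there were 11 higher and 0 lower, against 3341 of 18404 over all genes in either direction, and the median log2 fold change was 0.15. HSPA5, the main ER chaperone BiP, read 12.40, 12.41 and 12.37 log2 units in the knockdown and 12.16, 12.05 and 12.03 with the scrambled hairpin and rose by 0.31 ± 0.06 (SE; limma adjusted p = 0.0358). EDEM1 and SYVN1, which remove misfolded ER proteins, both rose by 0.32 ± 0.06, and WFS1, an ER membrane protein, by 0.36 ± 0.07. None of the 4 was called without any one of the knockdown replicates or scrambled replicate 2, where 8 to 10 genes of the list had an unadjusted p under 0.05. The share of all genes at that cut in those fits is not given.

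**Figure D4:**
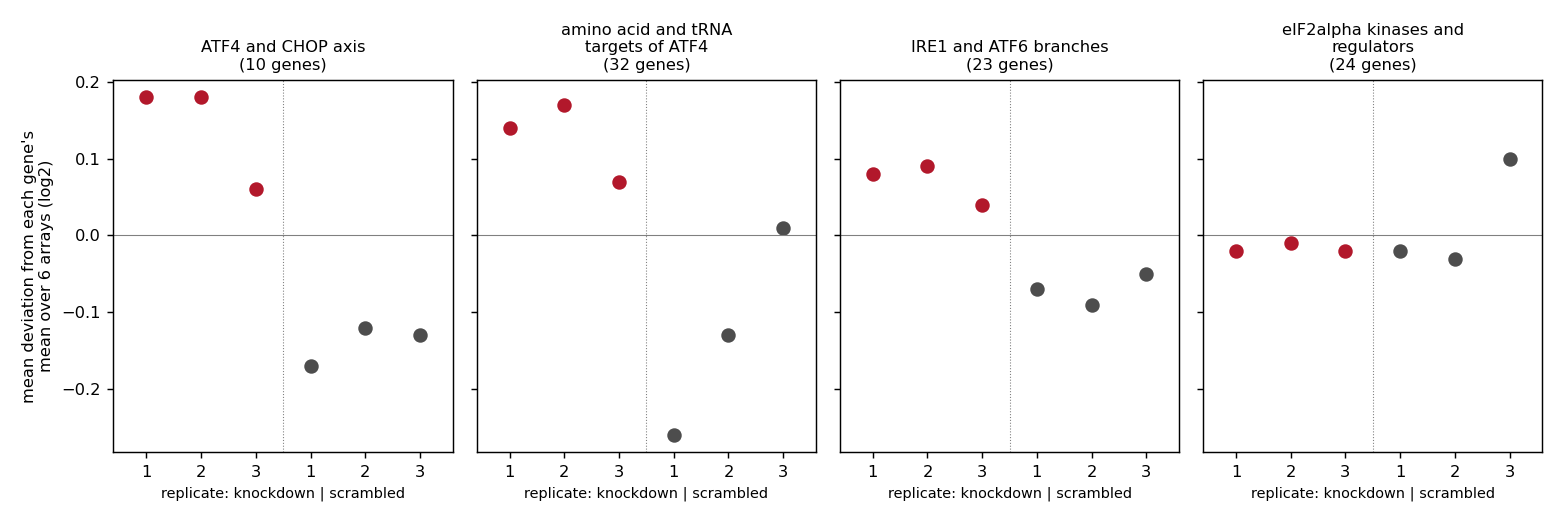
Mean deviation of each list's genes from their own mean over the 6 arrays, in log2 units (vertical axis), on the 3 knockdown arrays (red, left) and the 3 scrambled arrays (grey, right). The axis, the IRE1 and ATF6 genes and the amino acid and tRNA targets separate the groups. Among lists not drawn, so do the other targets of ATF4 or CHOP (lowest knockdown array 0.05, highest scrambled array −0.03). The other bZIP factors do so narrowly (0.01 and −0.0035), and the family relatives, mTORC1 genes and p53 targets do not. For the amino acid and tRNA targets, scrambled replicate 3 (0.01) comes close to the lowest knockdown array (0.07). For the eIF2 list, scrambled replicate 3 stands above all others, at 0.10.

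The complex that DDIT4 and SESN2 inhibit was looked at through mTORC1 and its upstream regulators. Of 24 measured genes, 3 rose, 0 fell and 21 did not pass, against 1.92% of all genes called higher. At p under 0.05 unadjusted there were 5 higher and 4 lower, against 3341 of 18404 over all genes in either direction, and the median log2 fold change was −0.02. DEPTOR, an inhibitor that binds mTOR, rose by 0.76 ± 0.10 log2 units (SE; limma adjusted p = 0.0062), reading 6.53, 6.70 and 6.42 in the knockdown and 5.87, 5.86 and 5.63 with the scrambled hairpin. TSC1, part of the complex that switches off RHEB, rose by 0.45 ± 0.07, and RRAGC, a Rag GTPase of the amino acid signal, by 0.30 ± 0.07. The count was 2 without knockdown replicate 1 or scrambled replicate 1, 3 without scrambled replicate 3, and 1 without any other array.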

How the data were processed

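The deposited values are log2 probe set values made by the authors with RMA, per the submitters' processing notes; RMA corrects background, normalises arrays by quantiles and compresses differences of dim probe sets. Sources used here give no RMA version. They cover 32321 probe sets and 1 array per sample, labelled with a whole-transcript biotin kit per the labels. The platform annotation gave 1 symbol to 19158 probe sets, several to 1388 and left 11775 unlisted. Names were checked by Entrez identifier against RefSeq (GRCh38.p14; 19128 matched), and the probe set with the highest mean was kept, leaving 18404 genes.

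The fit was made in R 4.3.3 with limma 3.58.1 (default lmFit and eBayes, two-sided, without covariates) as knockdown minus scrambled, with Benjamini-Hochberg adjustment over all genes. The step was also run on simulated data with independent noise for each gene. That run, whose outcome is not given, does not bear on deviations shared across an array. The axis genes and all lists were chosen with earlier results of these data known, and no list was given a set test. Text names every axis gene, UGT2B17, family relatives, and in each list the genes that passed (at most 8) or, if fewer than 2 passed, the 2 with the smallest p. Same-numbered arrays did not deviate together (r of −0.0539, −0.0666 and −0.0334), so replicate numbers were not treated as pairs. The number of arrays limits precision.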

Additional observations from a re-analysis of the deposited data

How the results depend on the processing

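The median log2 fold change of the 10 axis genes lay between 0.25 and 0.32 under every alternative run, and all measured axis genes were higher in the knockdown in each, except CEBPB (−0.01) without scrambled replicate 1. Counts past the threshold moved more. With the adjusted p under 0.1, 1207 genes were called, and 5 axis, 1 eIF2, 6 other target, 7 IRE1 and ATF6 and 5 mTORC1 genes. With all deposited probe sets tested, 139 genes were called, and 0 axis (7 unadjusted), 4 amino acid and tRNA, 0 bZIP (12 unadjusted), 0 IRE1 and ATF6 (11 unadjusted), 1 mTORC1 and 1 p53 genes. With array weights, 3511 genes were called, and 7 axis, 4 eIF2, 17 amino acid and tRNA, 11 other target, 3 relative, 13 bZIP, 12 IRE1 and ATF6, 10 mTORC1 and 7 p53 genes. These weights, estimated from the same arrays, were 0.549, 6.12 and 0.25 for scrambled replicates 1 to 3 and 0.734 to 1.42 for the knockdown arrays. The scrambled mean of that fit thus rested mainly on scrambled replicate 2. Centring arrays on their median left 1 bZIP and 1 p53 gene. A second quantile normalisation and the brighter genes alone each called 5 axis genes, and an intensity trend 5 mTORC1 genes. With the replicate number as a block, 367 genes were called, 2 axis, 5 amino acid and tRNA, 0 bZIP (11 unadjusted), 0 IRE1 and ATF6 (10 unadjusted), 1 mTORC1 and 1 p53. The share of all genes at an unadjusted p under 0.05 is not given for this fit or for all deposited probe sets. Nothing is read from these unadjusted counts. Leaving out 1 array gave 152 to 759 genes against 665, with 0 to 4 axis, 0 to 1 eIF2, 4 to 12 amino acid and tRNA, 1 to 2 relative, 0 to 2 bZIP, 0 to 5 IRE1 and ATF6, 1 to 3 mTORC1 and 0 to 3 p53 genes. Uncalled relatives changed sign with array weights, TRIB2 to −0.03, DDIT4L to −0.12 and CEBPE to −0.02. Over fits leaving out 1 array TRIB2 ran from −0.07 to 0.13, DDIT4L from −0.02 to 0.11, CEBPA from −0.01 to 0.08 and CEBPE from −0.02 to 0.08, and CEBPA was at −0.0012 without scrambled replicate 3. The cause of these changes was not tested.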

Other observations

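ATF3, SESN2 and DDIT4 are also known targets of p53, and a list of p53 targets was set beside them. Of 23 measured genes, 2 rose, 0 fell and 21 did not pass in limma, against 1.92% of all genes called higher. At p under 0.05 unadjusted there were 4 higher and 4 lower, against 3341 of 18404 over all genes in either direction. The median log2 fold change was −0.02. CCNG1, cyclin G1, read 10.53, 10.61 and 10.55 log2 units in the knockdown and 10.10, 10.10 and 9.94 with the scrambled hairpin and rose by 0.52 ± 0.07 (SE; adjusted p = 0.00739). FBXW7, a ubiquitin ligase adaptor, rose by 0.38 ± 0.08 (adjusted p = 0.0446). Neither was called without knockdown replicate 2, and FBXW7 was lost without any one array other than scrambled replicate 1.

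Among 9193 other genes at or above the median level, the 5 whose values most resembled the average of the 10 axis genes over the 6 arrays were CHAC1 (r = 0.9969), SEC61A1, the pore of the ER translocon (0.9962), IL32 (0.9947), ZFP36, an RNA-binding protein (0.9934) and SLC25A37, a mitochondrial iron carrier (0.9929). Such r values largely reflect the shared difference between the same 3 and 3 arrays, and they were picked as the highest of many. SEC61A1 read 11.32, 11.29 and 11.20 log2 units in the knockdown and 11.00, 11.06 and 11.04 with the scrambled hairpin.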
